A study of Mus musculus with 6 samples.

Results

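The expression of 10 endothelial surface genes, 10 of the 56980 genes in the deposited table, was examined in cultures of bone marrow (BM) mesenchymal stem cells (MSCs). They were chosen by gene name, and kept in 2 classes: 4 sinusoidal genes (*Stab1*, *Stab2*, *Lyve1* and *Emcn*) and 6 pan-endothelial genes (*Cdh5*, *Pecam1*, *Esam*, *Cldn5*, *Plvap* and *Egfl7*). The cultures came from female mice, of a strain not given in the sources used here, that underwent ovariectomy (OVX) at 8 weeks of age. Recipients were given ampicillin, metronidazole, neomycin and vancomycin, and then fecal microbiota transplantation (FMT) for 8 weeks, from sedentary OVX donors in the TranspCtrl group (3 samples) or from treadmill-exercised OVX donors in the TranspExer group (3 samples). Both groups therefore shared OVX, antibiotics and gavage, and differed in the donors. Marrow flushed from femurs and tibias was cultured for 7 days with repeated washes, and no sorting step was described, so the label MSC names an adherent culture and not a purified cell type. Neither the labels nor the methods say whether each sample came from 1 animal, so the p-values measure the spread between these samples, which may be technical in part.

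Blood vessels of the marrow are lined by endothelial cells, and most of its small vessels are sinusoids, wide and thin-walled channels through which blood cells enter the circulation. Sinusoidal endothelium carries scavenger receptors such as stabilins, which take up circulating waste, and its junctions are looser than those of arterioles. All endothelium is held together by a shared set of adhesion molecules, of which VE-cadherin (*Cdh5*) is the defining one. Several of these genes are also used outside the endothelium: *Stab1* and *Lyve1* by some tissue macrophages, and *Pecam1* and *Esam* by megakaryocytes, platelets or blood progenitors.

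The marrow label was checked against markers of cell types that such a culture could hold. All 16 marrow stromal markers, all 20 macrophage markers and all 6 pan-leukocyte markers were tested genes, that is, they passed the filter on low counts. *Ptprc*, the pan-leukocyte antigen CD45, had 4925 to 6097 counts per sample, and *Col1a1*, a chain of the main bone collagen, 93453 to 206750. Leukocyte RNA was thus present in all 6 samples beside stromal RNA. Total counts per sample ranged from 17647638 to 21319166, and 3 counts corresponded to 0.139 to 0.174 CPM (counts scaled to the library total times its TMM factor, as were the levels of genes and gene lists given in CPM), a floor that covers counting error only. One library stood apart within its group. Compared pair by pair, where counting error alone would give a chi-square per gene near 1, TranspCtrl replicate 1 differed from replicates 2 and 3 of its group by a mean of 59.3 and 54.1. Those 2 replicates differed by 3.79, and TranspExer samples by 4.45 to 7.85. Calls of named genes that were lost without that library are given with and without it.

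Genes were compared with the quasi-likelihood test of edgeR, and p-values were adjusted by the Benjamini-Hochberg method over 15190 tested genes. A gene is said here to have risen or fallen when its adjusted p-value was under 0.05, and is called a differentially expressed gene (DEG) when its fold change was also at least 2. All 10 genes passed the filter and were tested.

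The promoters of the members, of which 9 of 10 rose and 1 fell, are shown first. RefSeq promoter windows (GRCm38.p6) of 300 bases, 250 before and 50 after a start site, were held for 5 of the 10 members (*Stab1*, *Stab2*, *Emcn*, *Cldn5* and *Egfl7*), 7 windows in all since *Egfl7* had 3. *Lyve1*, *Cdh5*, *Pecam1*, *Esam* and *Plvap* had no entry. The 250 bases before the start are printed for *Stab1*, the member that fell, and for *Stab2*, *Emcn* and the first *Egfl7* window, 3 that rose, each on the strand of its gene. They lie at chr14:31168642-31168891 (minus strand), chr10:87007943-87008192 (minus strand), chr3:137340828-137341077 (plus strand) and chr2:26580833-26581082 (plus strand). Capitals mark AGGAAG and its reverse complement CTTCCT. These letters are a form of the site that ETS-family factors such as ERG and FLI1, regulators of endothelial genes, are known to bind. Other forms of that site are not marked.
Stab1: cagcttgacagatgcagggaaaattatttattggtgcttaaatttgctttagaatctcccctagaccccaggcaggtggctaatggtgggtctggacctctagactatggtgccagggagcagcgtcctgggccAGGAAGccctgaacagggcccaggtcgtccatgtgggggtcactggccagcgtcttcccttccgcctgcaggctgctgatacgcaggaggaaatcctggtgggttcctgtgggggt
Stab2: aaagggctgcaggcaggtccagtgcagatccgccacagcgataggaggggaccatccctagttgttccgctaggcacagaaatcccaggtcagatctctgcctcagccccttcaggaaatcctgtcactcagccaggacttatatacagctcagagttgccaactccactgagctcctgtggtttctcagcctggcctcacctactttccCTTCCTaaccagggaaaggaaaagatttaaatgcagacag
Emcn: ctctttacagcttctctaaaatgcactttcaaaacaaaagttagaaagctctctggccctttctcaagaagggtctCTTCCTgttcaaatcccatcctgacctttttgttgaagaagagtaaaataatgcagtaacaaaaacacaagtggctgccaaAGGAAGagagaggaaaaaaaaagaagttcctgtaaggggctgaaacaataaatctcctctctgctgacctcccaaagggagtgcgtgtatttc
Egfl7: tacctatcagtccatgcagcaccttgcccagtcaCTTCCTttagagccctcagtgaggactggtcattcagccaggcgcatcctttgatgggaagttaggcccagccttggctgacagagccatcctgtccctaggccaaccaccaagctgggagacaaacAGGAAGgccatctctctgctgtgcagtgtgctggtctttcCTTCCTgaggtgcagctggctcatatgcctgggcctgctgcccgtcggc

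AGGAAG on either strand was found in 5 of the 7 windows, and in 35.4% of all 32851 promoter windows of the same length. Counting from 0 at the start site, the first base of the match was at -116 in *Stab1*, at -40 in *Stab2*, at -174 and -93 in *Emcn*, and at -216, -89 and -49 in the first *Egfl7* window. The *Cldn5* window, of a member that rose, held none. Whether these letters bear on the direction of a member was not tested. AACAGGAA, a longer motif read jointly by forkhead and ETS factors that overlaps AGGAAG, was found in the *Emcn* window at -173 and in the first *Egfl7* window at -92, and in 2.65% of all windows. GATAAG, a form of the motif of GATA factors, was in none of the 7 windows (7.44% of all). Neither was CACGTG, a form of the E-box (7.15%), nor TATAAA (13.6%). Other forms of these motifs were not searched. AACAAT, a motif of SOX factors, was in the *Emcn* window alone (10.7% of all), and CCACCC, read by KLF factors, in the *Stab1* window and the second *Egfl7* window (31.5% of all). These are matches of letters in short windows, and binding was not measured.

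Of the 10 members, 9 rose and 1 fell in the TranspExer group. At the adjusted p-value alone, 16.6% of all tested genes rose and 15.5% fell. Past both thresholds 8 of the 10 were higher in TranspExer, against 3.5% of all tested genes, and 0 were lower, against 5.28%. Every TranspExer sample was above every TranspCtrl sample for 9 members, and below for *Stab1*. Such a lack of overlap was seen upward for 27.2% and downward for 25.1% of all tested genes. The median log2 fold change of the 10 members was 1.52, against -0.0179 over all tested genes. In a bulk culture, fewer cells of a type and less RNA per cell cannot be told apart, and this holds for every difference below.

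**Figure D1:**
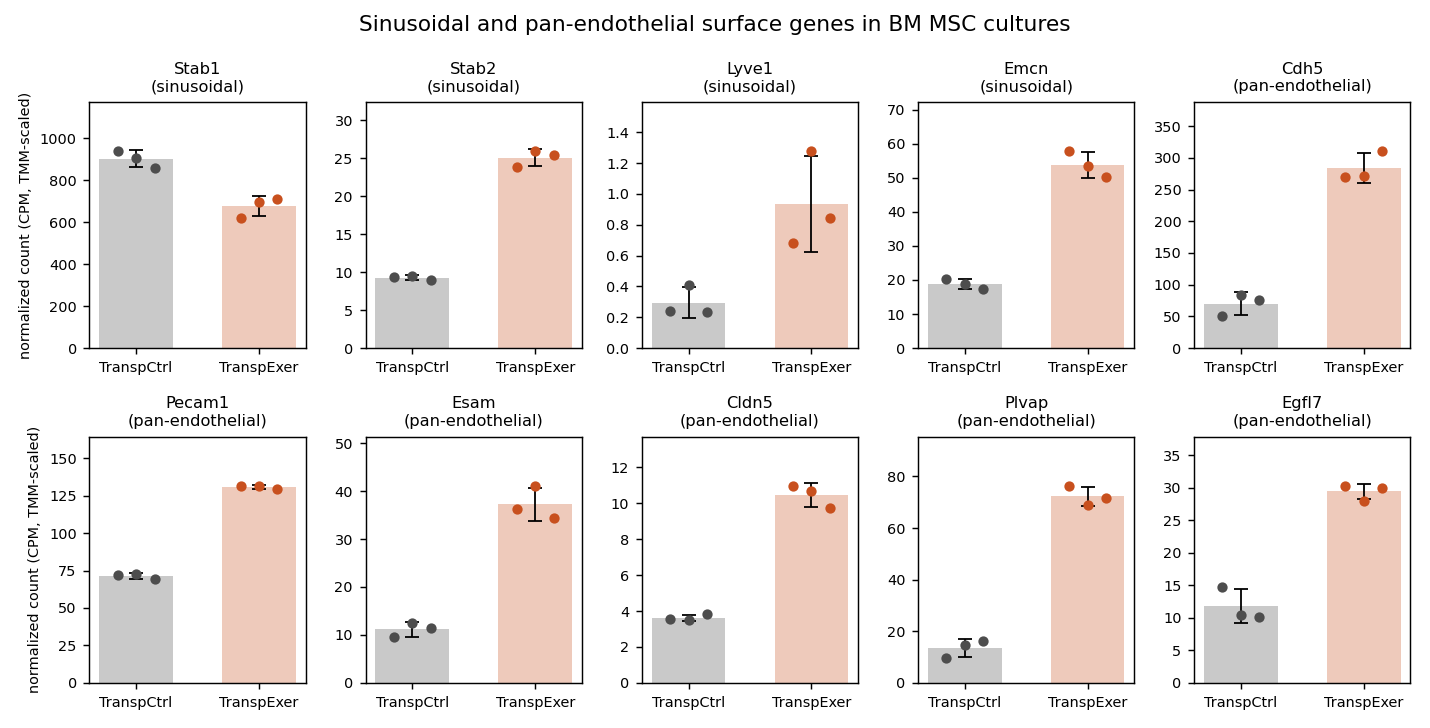
Normalized counts (CPM, scaled with TMM factors) of the 10 members, 1 panel per gene, with a bar for the group mean, an error bar for the SD and a point for each of the 3 samples per group. The TranspExer points lie above all TranspCtrl points in 9 panels and below them in the *Stab1* panel.

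The sinusoidal class split. *Stab1* fell modestly, whereas *Stab2*, *Emcn* and *Lyve1* each rose to between 2.70 and 3.11 times their TranspCtrl level. *Stab1* (ENSMUSG00000042286, chr14:31139013-31168641 in GRCm38, minus strand) encodes stabilin-1, a scavenger receptor of sinusoidal endothelium and of some macrophages. It was at 939, 908 and 858 CPM in the TranspCtrl samples and at 622, 698 and 711 CPM in the TranspExer samples. The lowest TranspCtrl sample was above the highest TranspExer sample. The log2 fold change was -0.41 (standard error, SE, 0.09, 95% interval -0.62 to -0.21, adjusted p = 0.0109 from edgeR), which is a level 1.33 times lower and short of the fold threshold. Without TranspExer replicate 1, the lowest sample, the log2 fold change was -0.36 and the adjusted p-value 0.0501.

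*Stab2* (ENSMUSG00000035459, chr10:86841198-87008025, minus strand) encodes stabilin-2, the related receptor that clears hyaluronan from blood and is made by fewer cell types than stabilin-1. It was at 9.36, 9.54 and 8.96 CPM in the TranspCtrl samples and at 23.8, 26.0 and 25.5 CPM in the TranspExer samples. Both groups were tight, and the gap between them was wider than the spread in either. The log2 fold change was 1.43 (SE 0.09, adjusted p = 6.19e-05). *Emcn* (ENSMUSG00000054690, chr3:137341067-137432185, plus strand), which encodes the sialomucin endomucin of capillary and venous endothelium, was at 20.2, 18.9 and 17.4 CPM in TranspCtrl and at 57.8, 53.5 and 50.3 CPM in TranspExer. Its log2 fold change was 1.52 (SE 0.09, adjusted p = 5.25e-05), close to that of *Stab2*.

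*Lyve1* (ENSMUSG00000030787, chr7:110850607-110863239, minus strand), a hyaluronan receptor of lymphatic and some sinusoidal endothelium, was near the limit of detection. It had 5, 8 and 5 counts in the TranspCtrl samples and 13, 22 and 17 in the TranspExer samples. The means were 0.295 ± 0.0996 CPM (SD, n = 3) and 0.933 ± 0.309 CPM (SD, n = 3). The log2 fold change was 1.64 with the widest 95% interval of the 10 members, 0.71 to 2.57 (SE 0.40, adjusted p = 0.0184). The call was lost when TranspCtrl replicate 3 (log2 fold change 1.49, adjusted p = 0.0615), TranspExer replicate 2 (1.35, adjusted p = 0.0762) or TranspExer replicate 3 (1.69, adjusted p = 0.0554) was left out, and when the fold change of 2 was tested within the model (adjusted p = 0.495).

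Because *Stab1* fell as *Stab2* rose, the ratio of their counts within each sample was computed, which needs no scaling between samples. It was 100, 95.2 and 95.8 in the TranspCtrl samples and 26.1, 26.9 and 27.9 in the TranspExer samples. The mean ratio thus went from 97.1 ± 2.77 (SD, n = 3) to 27.0 ± 0.927 (SD, n = 3), as a description with no test. *Lyve1* to *Stab2* ratios were 0.0317 ± 0.00984 and 0.0370 ± 0.0109 (SD, n = 3 each) and overlapped between the groups.

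All 6 pan-endothelial genes rose, and 5 of them were DEGs. *Plvap* had the largest estimate and *Pecam1* the smallest. *Plvap* (ENSMUSG00000034845, chr8:71497765-71511752, minus strand) encodes the protein of the diaphragms that span endothelial caveolae and fenestrae. It was at 9.75, 14.7 and 16.1 CPM in the TranspCtrl samples and at 76.3, 68.9 and 71.5 CPM in the TranspExer samples, a difference of 2.42 on the log2 scale (SE 0.17, adjusted p = 7.65e-05). The lowest TranspExer sample was more than 4 times the highest TranspCtrl sample. *Cdh5* (ENSMUSG00000031871, chr8:104101625-104144511, plus strand), the VE-cadherin of adherens junctions, was at 50.3, 84.0 and 76.1 CPM in TranspCtrl and at 270, 271 and 311 CPM in TranspExer. Its log2 fold change was 2.02 (SE 0.18, adjusted p = 0.00023).

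For both genes TranspCtrl replicate 1, the library that stood apart, was the lowest sample. Without it the log2 fold change was 2.23 for *Plvap* and 1.83 for *Cdh5*, and both stayed DEGs. The same library was also lowest for *Esam* and highest for *Egfl7*, where leaving it out gave 1.64 and 1.52.

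*Esam* (ENSMUSG00000001946, chr9:37528078-37538319, plus strand), an adhesion molecule of endothelial tight junctions and platelets, was at 9.51, 12.5 and 11.4 CPM in TranspCtrl and at 36.3, 41.1 and 34.3 CPM in TranspExer, a difference of 1.74 on the log2 scale (SE 0.13, adjusted p = 8.8e-05). *Cldn5* (ENSMUSG00000041378, chr16:18776847-18778262, plus strand, 1 exon) encodes claudin-5, the main claudin of endothelial tight junctions. It was at 3.56, 3.49 and 3.81 CPM and at 10.97, 10.7 and 9.73 CPM in the same order, a difference of 1.53 on the log2 scale (SE 0.13, adjusted p = 0.000145). *Egfl7* (ENSMUSG00000026921, chr2:26580014-26593120, plus strand), a factor secreted by endothelium into its matrix, was at 14.8, 10.5 and 10.1 CPM and at 30.3, 28.0 and 29.97 CPM. Its log2 fold change was 1.32 (SE 0.15, adjusted p = 0.000668), and its call was lost when the fold change of 2 was tested within the model (adjusted p = 0.216). In each of these genes the groups did not overlap.

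*Pecam1* (ENSMUSG00000020717, chr11:106654217-106750628, minus strand), the adhesion molecule CD31, was at 72.3, 72.9 and 69.3 CPM in TranspCtrl and at 131.5, 131.5 and 129.6 CPM in TranspExer. The samples within a group were nearly level, and the log2 fold change of 0.87 (SE 0.07, 95% interval 0.71 to 1.03, adjusted p = 0.000121) was a rise of 1.83 times, short of the fold threshold of 2. *Cdh5* and *Pecam1* thus moved by unequal amounts. The ratio of *Cdh5* to *Pecam1* counts was 0.696, 1.15 and 1.10 in the TranspCtrl samples and 2.06, 2.06 and 2.40 in the TranspExer samples. The ratio of *Plvap* to *Cdh5* was 0.193 ± 0.0183 and 0.255 ± 0.0262 (SD, n = 3 each), with no overlap. That of *Emcn* to *Cdh5* was 0.285 ± 0.102 and 0.191 ± 0.0267, again with no overlap, and in TranspCtrl replicate 1 it was 0.403 against 0.225 and 0.228 in the others. That of *Stab2* to *Cdh5* was 0.139 ± 0.0408 and 0.0886 ± 0.00688, and in TranspCtrl replicate 1 it was 0.186 against 0.113 and 0.118 in the others. These ratios were not tested.

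**Figure D2:**
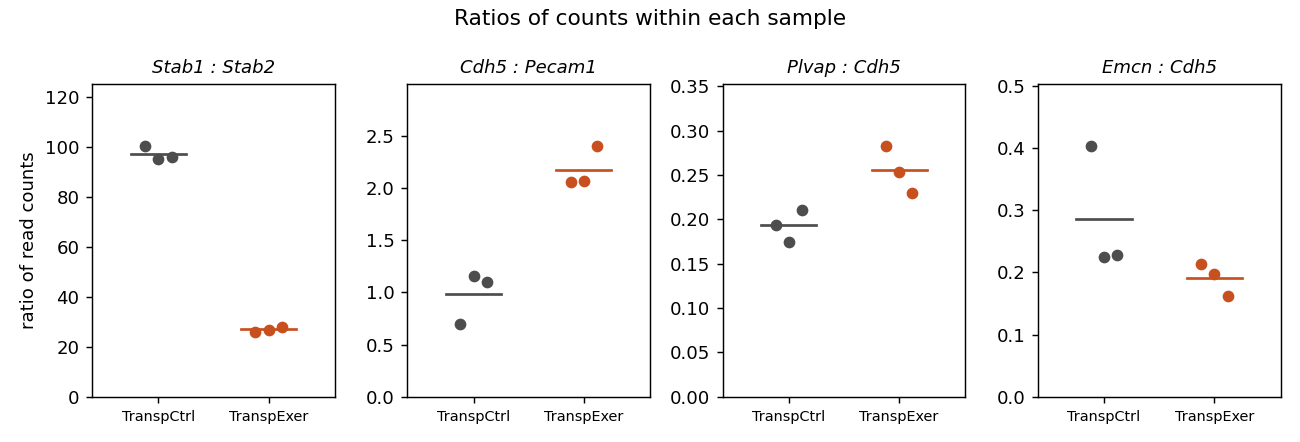
Ratios of read counts within each sample for 4 pairs of members, with 3 points per group and a line at the group mean. The *Stab1* to *Stab2* ratio lies between 95.2 and 100 in TranspCtrl and between 26.1 and 27.9 in TranspExer, and the *Cdh5* to *Pecam1* ratio lies at 1.15 or below in TranspCtrl and at 2.06 or above in TranspExer.

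**Figure D3:**
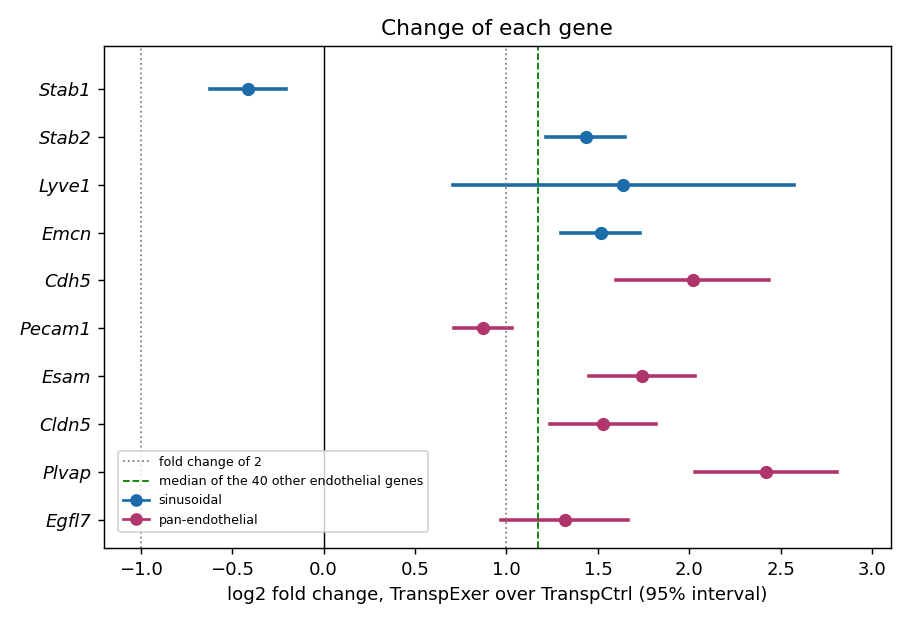
Log2 fold change of TranspExer over TranspCtrl for each member (point) with its 95% interval (line), with a fold change of 2 marked by dotted lines and the median of 40 other endothelial genes by a dashed line at 1.17. *Stab1* lies below 0, the interval of *Pecam1* reaches 1.03, and *Plvap* is farthest to the right at 2.42.

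Levels of different genes were compared as CPM per kilobase of exon (union of the GENCODE M21 exons). In the TranspCtrl group *Stab1* stood far above the rest at 87.6 ± 3.93 CPM per kb (SD, n = 3). *Cdh5* at 16.7 ± 4.20 and *Pecam1* at 11.5 ± 0.306 came next, and then *Plvap* at 6.79 ± 1.67. *Esam* at 3.89 ± 0.531, *Emcn* at 3.48 ± 0.265 and *Egfl7* at 3.30 ± 0.733 overlapped sample by sample, *Cldn5* was at 2.56 ± 0.119, *Stab2* at 1.06 ± 0.0336 and *Lyve1* at 0.101 ± 0.0341. In the TranspExer group *Cdh5* at 67.6 ± 5.48 and *Stab1* at 65.8 ± 4.69 overlapped at the top. *Plvap* followed at 36.4 ± 1.91, then *Pecam1* at 21.01 ± 0.181, *Esam* at 12.99 ± 1.21, *Emcn* at 9.96 ± 0.703, *Egfl7* at 8.22 ± 0.342 and *Cldn5* at 7.39 ± 0.461, with *Stab2* at 2.86 ± 0.127 and *Lyve1* at 0.320 ± 0.106 lowest. All other neighbours in these orders were apart in every sample. The sinusoidal class thus held both the highest member of the TranspCtrl group and the 2 lowest members of both groups. With the gene lengths of the deposited table in place of the exon union, *Stab1* was highest in both groups (112.7 and 84.6 CPM per kb) and *Cldn5*, *Stab2* and *Lyve1* stayed lowest, but *Pecam1* moved above *Cdh5* in TranspCtrl and above *Plvap* in TranspExer, and the places of *Plvap*, *Esam*, *Emcn* and *Egfl7* in between changed.

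**Figure D4:**
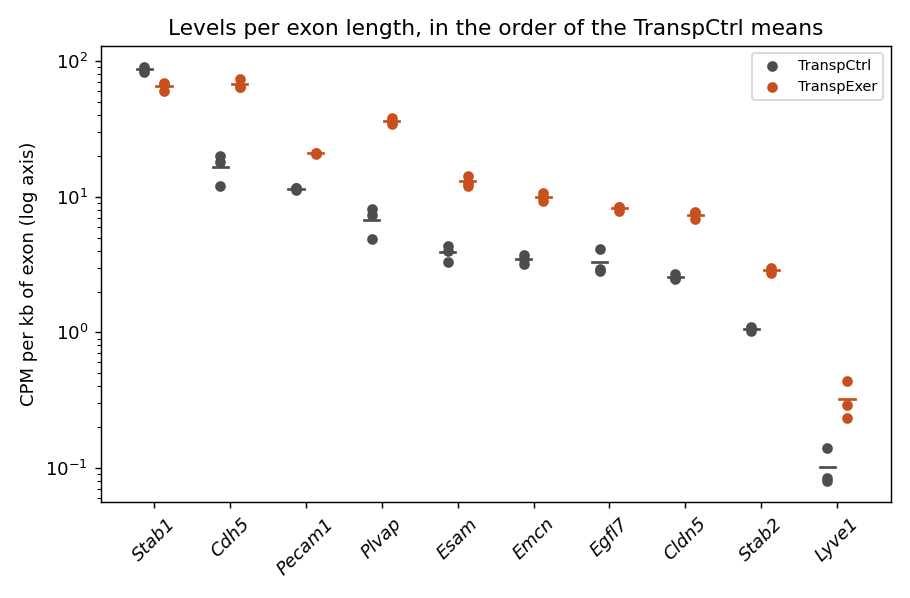
Levels of the 10 members in CPM per kilobase of exon on a log axis, ordered by the TranspCtrl mean, with 3 points and a mean line per group. *Stab1* is highest in TranspCtrl at 87.6, *Cdh5* and *Stab1* share the top in TranspExer at 67.6 and 65.8, and *Lyve1* is lowest in both.

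Overlaps with other genes could affect single members, since the setting for strand in the counting is not given in the sources used here. *Stab1* shares 112 of its 10288 exon bases with *Nt5dc2* on the opposite strand. *Nt5dc2* had 1408 to 2848 counts per sample and a log2 fold change of -0.49 (adjusted p = 0.0462). *Egfl7* shares 64 exon bases with *Agpat2* on the opposite strand, which had 377 to 578 counts and a log2 fold change of 0.48 (adjusted p = 0.00849). *Gm20532*, with 264 exon bases in common with *Egfl7*, and the microRNA genes *Mir126a* and *Mir126b* within it were listed at 0 counts in all samples. For *Stab2*, *Gm16268* shares 141 exon bases and had at most 1 count. The part of these overlaps in the members' values was not tested.

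The members were set beside 40 other endothelial genes. Of these, 34 rose, none fell, and 24 were upregulated DEGs, with a median log2 fold change of 1.17. The 4 with the smallest adjusted p-values were *Adgrl4*, an adhesion receptor of angiogenic endothelium (1.77, adjusted p = 2.28e-05), the guidance receptor *Robo4* (2.59, adjusted p = 6.19e-05), the VEGF receptor *Kdr* (1.55, adjusted p = 7.57e-05) and the transcription factor *Sox17* (2.69, adjusted p = 8.1e-05). Those that did not pass were *Icam2* at 0.23, *Clec14a* at 0.19, *S1pr1* at 0.13, *Tspan18* at 0.31, *Gimap4* at -0.10 and *Cd34* at 0.18, all with adjusted p-values of 0.185 or more. Of the 10 members, 8 lay above the median of this list and *Pecam1* and *Stab1* below it.

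Other genes linked to sinusoids did not move as one. Of 18 listed, 14 were tested, 7 rose, 2 fell and 4 were upregulated DEGs, with a median log2 fold change of 0.41. The DEGs were the fatty acid receptor *Cd36* (363 ± 9.54 to 1496 ± 53.1 CPM, SD, n = 3 each, log2 fold change 2.04), the channel subunit *Abcc9* (1.21), which is also on the list of pericyte and smooth muscle markers, the VEGF-C receptor *Flt4* (1.79) and the secreted nuclease *Dnase1l3* (1.28). *Adamts5*, a matrix protease, fell by 0.40 on the log2 scale and the endocytic *Ehd3* by 0.36. *Fcgr2b*, an Fc receptor of sinusoids, macrophages and B cells, was at -0.23 (adjusted p = 0.0612). *Gata4*, a factor of liver sinusoids, had 0 counts in all samples, and *Clec4g*, *Sele* and *Gpr182* had at most 4, 6 and 12 counts and were not tested.

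Among 13 tested arterial and type H genes (type H being the capillaries near growing bone), 7 rose and 1 fell. *Dll4* (1.18), *Jag1* (1.37), *Hey1* (1.30) and *Hey2* (1.26), which are Notch ligands and targets, were upregulated DEGs, and *Ly6a*, the antigen Sca-1 shared with stromal and blood progenitors, was a downregulated DEG (-1.07). Without TranspCtrl replicate 1 *Ly6a* was at -0.93 and was not a DEG, and without TranspExer replicate 2 *Hey2* was at 1.05 (adjusted p = 0.0593). Of 7 tested lymphatic genes 4 rose and 1 fell, with *Mmrn1* (1.16) and *Nr2f2* (1.15) upregulated and *Reln* (-2.20) downregulated past both thresholds. *Nr2f2* was no longer a DEG without TranspCtrl replicate 1 (0.91) or without TranspExer replicate 3 (1.09, adjusted p = 0.0548). *Prox1*, the defining factor of lymphatic endothelium, had 4 to 12 counts per sample, and *Ccl21a* at most 1.

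The 28 listed junction partners are proteins that act in or beside cell junctions, whether or not they bind a member. Of these, 26 were tested, 9 rose, 4 fell and 2 were DEGs, with a median log2 fold change of 0.08. The DEGs were *Jup*, the plakoglobin that binds VE-cadherin (1.38, adjusted p = 0.00109), and the claudin *Cldn15* (1.20, adjusted p = 0.000563). The catenins *Ctnnb1* (-0.06), *Ctnna1* (0.04) and *Ctnnd1* (-0.05), which bind VE-cadherin and other cadherins alike, had adjusted p-values of 0.553 to 0.688, beside a log2 fold change of 2.02 for *Cdh5*. *F11r*, a junctional adhesion molecule also on platelets, rose by 0.98 and *Jam3* fell by 0.82 on the log2 scale.

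Cell types that share members with endothelium were read in the same samples. Of 20 macrophage markers 7 rose and 3 fell, with a median log2 fold change of 0.13, and their summed level was 10115 to 15144 CPM in TranspCtrl and 8722 to 9411 CPM in TranspExer. *Lyz2*, the lysozyme of macrophages and neutrophils, made up much of that sum, and without it the order of the groups was the reverse, at 5153 to 6056 CPM in TranspCtrl and 6128 to 6303 CPM in TranspExer. None was at 0. Among those past both thresholds *Clec7a* (1.05) was higher and *Marco* (-1.35) and *Lyz2* (-1.14) were lower. Without TranspCtrl replicate 1, 2 markers of the list passed both, and *Lyz2* was at -0.80 and not among them. It was not a DEG without TranspExer replicate 3 either (-1.08, adjusted p = 0.0506). *Csf1r* was at 0.07 (adjusted p = 0.511) and *Adgre1*, a surface antigen of macrophages, at 0.16 (adjusted p = 0.189). *Mrc1*, the mannose receptor of macrophages and sinusoids, fell by 0.33 on the log2 scale (adjusted p = 0.0159). The part of macrophage RNA in the values of *Stab1* and *Lyve1* was not tested.

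Of 12 megakaryocyte and platelet markers 9 rose and none fell, with 8 DEGs, a median log2 fold change of 1.29 and no marker at 0. Their summed level was 291 to 343 CPM in TranspCtrl and 556 to 589 CPM in TranspExer. Among the DEGs were *Ppbp* (1.26), *Itga2b* (1.52) and *Treml1* (1.23), whereas *Pf4* was at 0.02 (adjusted p = 0.948). Of 6 pan-leukocyte markers 5 rose, and their summed level was 2626 to 3222 CPM in TranspCtrl and 4619 to 4792 CPM in TranspExer. *Laptm5* was the DEG among them (1.02), and was not one without TranspCtrl replicate 1 (0.77) or TranspExer replicate 3 (0.97). *Ptprc* was at 0.06 (adjusted p = 0.552). The part of these cells in the values of *Pecam1*, *Esam* and the other members was not tested.

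Of 16 marrow stromal markers, 2 rose and 7 fell, with a median log2 fold change of -0.21, none at 0, and a summed level of 16060 to 24545 CPM in TranspCtrl and 15624 to 16861 CPM in TranspExer. The 3 downregulated DEGs were *Pdgfra* (-1.003), *Col3a1* (-1.28) and *Nt5e* (-1.08). *Pdgfra* was at -0.97 without TranspCtrl replicate 2 and at -0.999 without TranspExer replicate 1, and *Nt5e* at -0.99 without TranspExer replicate 3, all short of the fold threshold. Whether a change in the share of stromal RNA bears on the members' values was not tested.

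**Figure D5:**
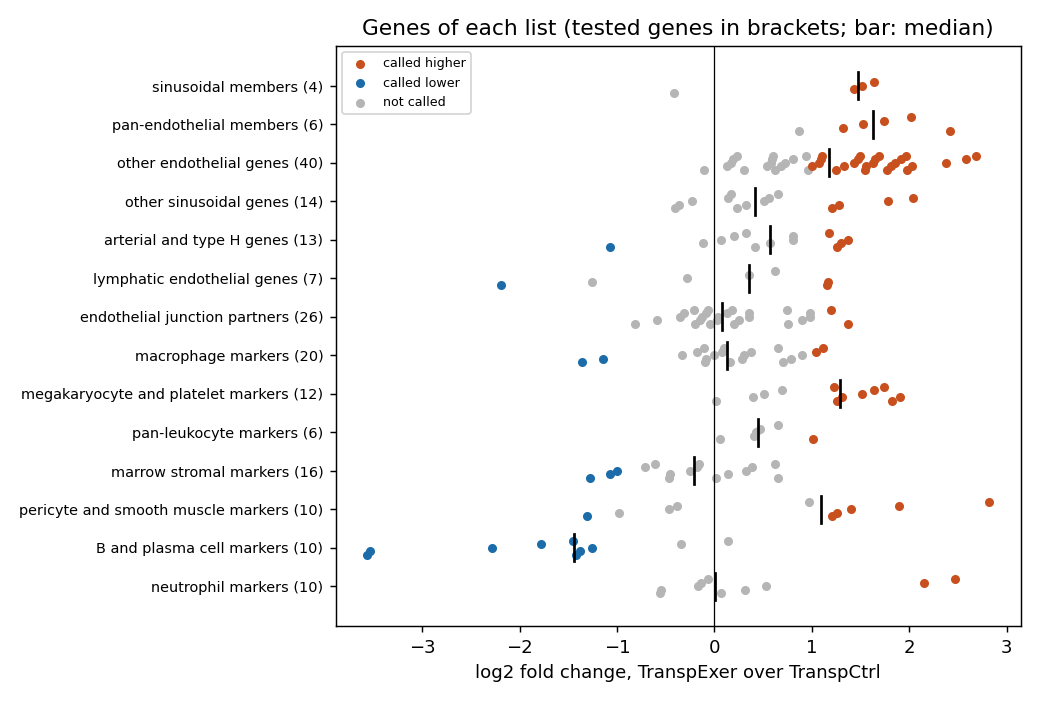
Log2 fold change of every tested gene in the members' classes and the context lists (points), coloured by whether the gene passed both thresholds, with a bar at each list's median and the number of tested genes in brackets. The 40 other endothelial genes have a median of 1.17, the 26 junction partners 0.08 and the 20 macrophage markers 0.13.

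The genes whose pattern over the 6 samples was most like that of *Cdh5* and of *Stab2* were found by the root mean square difference of centred log2 CPM, among 13939 tested genes with a mean of at least 1 CPM. Among the nearest to *Cdh5* were the protocadherin *Pcdh1* (difference 0.043), the receptor *Notch4* (0.0851), the adhesion receptor *Adgrg1* (0.0946) and the apelin gene *Apln* (0.101). Their log2 fold changes were 2.02, 1.92, 1.90 and 2.09. Nearest to *Stab2* were *Amz1* (0.0426), *Ms4a3* (0.0568), a marker of granulocyte and monocyte progenitors, the myeloid receptor *Cd300a* (0.0591), the stress-response factor *Atf3* (0.0667) and the iron exporter *Slc40a1* (0.0712). None of these 5 is on the endothelial lists, whereas *Notch4* is on that of other endothelial genes.

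By the same measure the members nearest to *Cdh5* were *Plvap* (0.229) and *Esam* (0.234), and the farthest was *Stab1* (1.26). Those nearest to *Stab2* were *Cldn5* (0.108) and *Emcn* (0.111), a pan-endothelial and a sinusoidal gene. *Stab1*, at 0.920, was the member farthest from *Stab2*. With 6 samples in 2 groups, genes with like differences between the groups come out near each other by this measure, and it is given as a description. TranspCtrl replicate 1, the library that stood apart, also enters it. In that library *Cdh5*, *Plvap* and *Esam* were at their lowest and *Egfl7* was at its highest TranspCtrl level. The differences were not computed without that library.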

How the data were processed

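RNA-Seq of BM MSCs was available for 3 TranspCtrl and 3 TranspExer samples, grouped by their titles. The authors deposited expected counts, which are estimated counts per gene without normalization, with 10.1% to 12.2% of the values in a sample not whole. The submitters' processing notes name the build mm10, and the aligner and counting tool are not given in the sources used here. The library kit is a stranded one in the labels and a TruSeq one in the paper.

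Counts were rounded, filtered (filterByExpr), TMM-normalized and tested with edgeR 4.0.16 in R 4.3.3, with condition as the only term. As in the paper, DEGs needed an adjusted p-value of 0.05 and a fold change of 2. SEs were computed from fold changes and F statistics. An exact two-sided permutation test of 3 against 3 cannot go below 0.1. Coordinates and exon lengths came from GENCODE M21 (GRCm38), which held 52125 of the 56980 gene identifiers.

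Members and gene lists were chosen with earlier results of these data known. The genes named are all members, the 5 nearest to *Cdh5* and to *Stab2*, overlapping genes, and per list and direction at most 4 DEGs with its smallest adjusted p-values. Some genes that this rule selects are not reported here. Others were chosen after their values were seen. Alternatives were DESeq2 1.42.0, other scalings, filters and tests of the fold change, the replicate number as a block, and each sample left out.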

Additional observations from a re-analysis of the deposited data

How the results depend on the processing

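Every member kept its direction under each alternative that tested it, and under the 12 alternatives other than testing the fold change of 2 within the model 8 of the 10 kept their side of each threshold. The exceptions were *Stab1*, whose adjusted p-value was 0.0501 without TranspExer replicate 1, and *Lyve1*. *Lyve1* was removed by the filter of at least 1 CPM in 3 samples and lost its call without any 1 of 3 samples, as given with its values. Testing the fold change within the model left 138 of 531 upregulated and 274 of 802 downregulated DEGs, 2 of 3 sinusoidal and 4 of 5 pan-endothelial DEGs (without *Lyve1* and *Egfl7*), 14 of 24 DEGs among the other endothelial genes and none of 4 among the macrophage markers. Without single samples the DEGs numbered 443 to 579 upregulated and 671 to 852 downregulated, and the log2 fold change ranged from 1.83 to 2.17 for *Cdh5*, from 2.23 to 2.56 for *Plvap* and from 1.21 to 1.52 for *Egfl7*. Without TranspCtrl replicate 1, 2 macrophage markers and 0 pan-leukocyte markers passed both thresholds. For lists other than the endothelial and macrophage ones, and for single context genes, leaving out a sample was added after seeing the data, as was the macrophage sum without *Lyz2*. Scaling by upper quartile or library size moved the median of all genes by -0.0794 and -0.0867, with 9 members higher and 1 lower under both. Replicate numbers did not pair the samples, since the deviations of equal numbers correlated by 0.0247, -0.00167 and 0.0416. With the replicate block there were 519 upregulated and 767 downregulated DEGs, and *Stab1* was at -0.42 (adjusted p = 0.0274). At these depths *Lyve1*, with 5 to 22 counts per sample, is the member limited by depth.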

Other observations

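Lists of 3 further cell types were read in the same cultures. Of 10 pericyte and smooth muscle markers, cells that surround vessels, 6 rose and 3 fell, *Abcc9*, which is also on the list of sinusoidal genes, among the former. Their summed level was 2479 to 2920 CPM in TranspCtrl and 1731 to 1941 CPM in TranspExer. *Acta2*, which made up much of that sum, fell by 0.47 on the log2 scale and *Tagln* by 0.98. *Cspg4*, the proteoglycan NG2, went from 1.95 ± 0.491 to 13.8 ± 1.33 CPM (SD, n = 3 each, log2 fold change 2.82, adjusted p = 6.65e-05), *Rgs5*, a regulator of G protein signaling in pericytes, from 5.28 ± 1.11 to 19.6 ± 0.856 CPM (1.90, adjusted p = 0.000135) and the potassium channel *Kcnj8* from 5.32 ± 0.561 to 14.1 ± 0.995 CPM (1.40, adjusted p = 0.000233). *Cnn1*, a calponin of contractile cells, went from 45.3 ± 6.13 to 18.4 ± 2.28 CPM (-1.30, adjusted p = 0.000372).

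Of 10 B and plasma cell markers 8 fell, all past both thresholds, with a median log2 fold change of -1.44, among them *Mzb1* (-3.57), *Jchain* (-2.29), *Ms4a1* (-1.25) and *Cd79b* (-1.38). Of 10 neutrophil markers 3 rose and 2 fell, and the DEGs were the primary granule genes *Elane* (2.16) and *Mpo* (2.47).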
